A study of Mus musculus with 6 samples.

Results

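Dual-specificity phosphatases remove phosphate from both tyrosine and threonine, and several of them switch off the MAP kinases ERK, JNK and p38 by clearing both residues of the activation loop. The typical members carry a kinase-docking domain beside the catalytic domain, and many are themselves induced by the kinases they restrain. The atypical members are smaller, lack that domain and act on a wider range of substrates. In muscle, MAP kinase signalling takes part in myoblast differentiation, in the response to exercise and in loss of mass. The 8 genes described here were taken by name from the 55995 features of the gene table: Dusp1, Dusp6, Dusp8 and Dusp10 of the typical class, and Dusp3, Dusp18, Dusp26 and Dupd1 of the atypical class. They were picked with their levels and their differences between the groups in these 6 libraries in view. Those levels and differences are therefore given as a description, without a test.

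The gastrocnemius, a calf muscle of mostly fast fibres, was taken for RNA-seq from NSG mice (NOD/SCID/IL2Rγ-null), which lack mature T, B and NK cells. Every mouse had received MDA-MB-231 cells, a human breast cancer line left wild type, with Matrigel beneath the skin of the left flank. In the radiotherapy group (3 libraries) the tumour alone was irradiated at a size of about 800 mm3, with a single dose of 10 Gy (6 MV X-rays, delivered at 6 Gy per minute), and the muscle opposite the tumour was collected 3 days afterwards. The control group (3 libraries) is labelled only as control. The age and sex of the mice, and the tumour size and collection day of the control group, are not given in the sources used here. Whether each library is a different mouse is not stated in the labels, and the spread within a group may then be technical.

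Values are TPM, a measure of transcript abundance scaled for transcript length and to the same total in every library. The sequencing depth is unknown, and the error of each value is the spread over 3 libraries. All 13 muscle fibre markers were detected. Their summed level was 194740, 205335 and 105031 TPM in radiotherapy replicates 1, 2 and 3 and 129442 to 138457 TPM in control. Radiotherapy replicate 3 stood apart within its group, with a mean absolute log2 distance to the other libraries of its group of 0.957. That distance was 0.606 and 0.626 for radiotherapy replicates 1 and 2 and 0.459 to 0.517 for the control libraries. By the median log2(TPM + 1) of features averaging 1 TPM or more, radiotherapy replicates 1 and 2 were instead the low libraries, at 2.48 and 2.40. Radiotherapy replicate 3 was at 3.11 and control at 2.97 to 3.22. Which radiotherapy library is atypical cannot be told from these values. The 6 neutrophil markers of radiotherapy replicate 3 summed to 2933 TPM, against 10.4 and 18.3 TPM in the other radiotherapy libraries and 73.2 to 183 TPM in control. Of 4 smooth muscle markers 2, and of 3 erythroid markers 2, were above all controls in every radiotherapy library, with sums of 93.3 to 131 TPM and 694 to 919 TPM in radiotherapy and 54.4 to 85.5 TPM and 172 to 791 TPM in control. Of 4 satellite cell markers, which summed to 6.25 to 16.7 TPM in radiotherapy and 13.6 to 22.6 TPM in control, Myf5 was lower and Calcr higher in all radiotherapy libraries, both under 1 TPM. Over all features averaging 1 TPM or more, 1.73% were separated in this way as higher and 19.3% as lower. Differences are given with and without radiotherapy replicate 3. Differences are radiotherapy minus control on the log2(TPM + 1) scale, which understates the change of low genes. Their median over the 11938 features averaging 1 TPM or more was -0.36, or -0.57 without radiotherapy replicate 3, so that a gene at 0 lay above most others.

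The phosphatases did not share 1 direction. In each radiotherapy library Dupd1 exceeded every control library, at 24.6 ± 10.8 TPM in radiotherapy and 5.52 ± 0.501 TPM in control (SD, n = 3 libraries each). Dusp8 was lower in all 3, at 1.18 ± 0.435 TPM in radiotherapy and 3.48 ± 0.404 TPM in control, and Dusp3 was lower by a smaller margin. Dusp1 and Dusp26 were low in the first 2 radiotherapy replicates and within the control range or above it in the third. Dusp6, Dusp10 and Dusp18 overlapped between the groups.

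**Figure D1:**
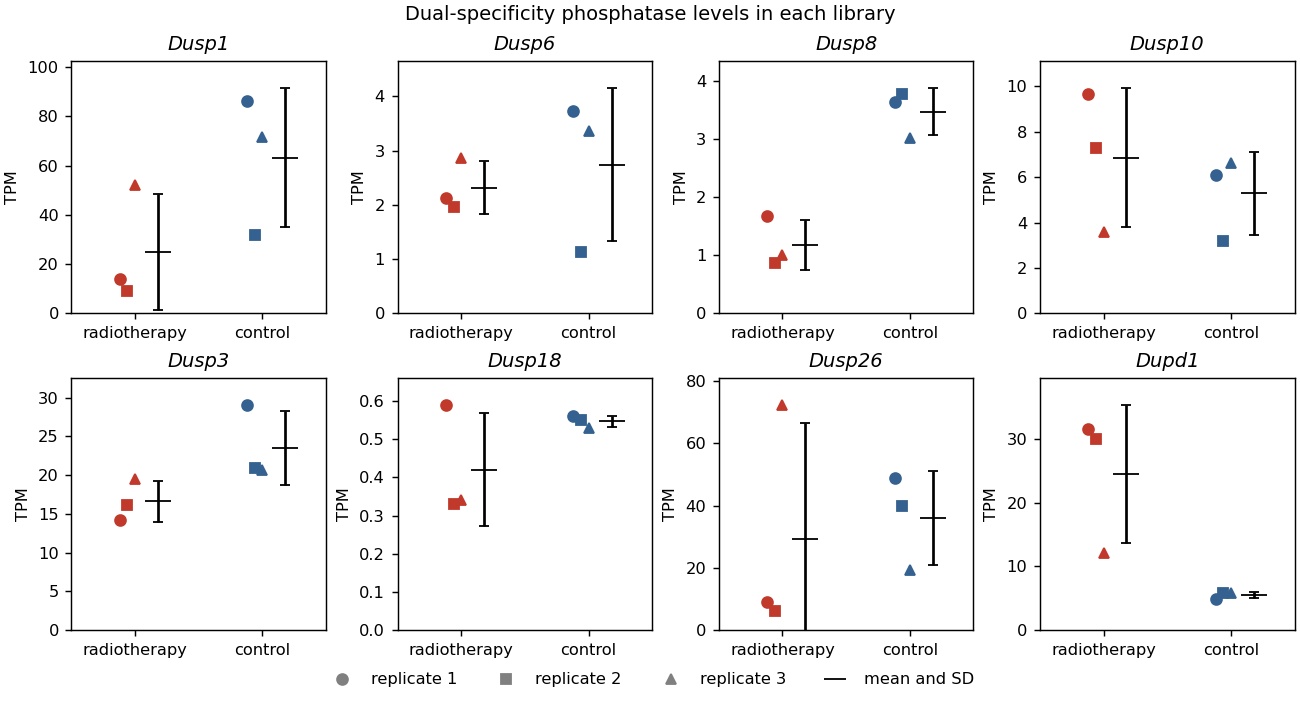
TPM of each of the 8 phosphatases in the 3 radiotherapy libraries (red, left) and the 3 control libraries (blue, right), with the group mean and SD beside the points (bars that would pass below 0 are cut at the axis). Dupd1 is above every control library in all 3 radiotherapy libraries and Dusp8 is below them, while Dusp1 and Dusp26 are split by radiotherapy replicate 3.

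The upstream sequences of Dusp1, Dusp8 and Dupd1 are shown as those of an inducible member, of the typical member whose groups were separated and of the member that lay higher. They are the 250 bases before the gene start in RefSeq on GRCm38.p6, at chr17:26508473-26508722, chr7:142095285-142095534 and chr14:21714577-21714826, all on the minus strand and printed 5′ to 3′. Capitals mark the cAMP response element TGACGTCA in Dusp1 and Dusp8, and in Dupd1 the E-boxes (CANNTG), the AP-1 motif (TGANTCA) and the MEF2 motif.
Dusp1: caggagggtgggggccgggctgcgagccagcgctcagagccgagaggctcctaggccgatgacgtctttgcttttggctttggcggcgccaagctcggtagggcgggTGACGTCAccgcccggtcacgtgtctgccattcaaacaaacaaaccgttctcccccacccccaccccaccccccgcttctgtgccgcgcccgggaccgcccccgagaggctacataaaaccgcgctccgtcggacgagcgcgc
Dusp8: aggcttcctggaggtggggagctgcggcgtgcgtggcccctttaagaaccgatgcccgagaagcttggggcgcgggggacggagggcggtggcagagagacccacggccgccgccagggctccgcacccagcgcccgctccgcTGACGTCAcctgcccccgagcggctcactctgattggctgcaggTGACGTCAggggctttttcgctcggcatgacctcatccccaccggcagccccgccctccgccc
Dupd1: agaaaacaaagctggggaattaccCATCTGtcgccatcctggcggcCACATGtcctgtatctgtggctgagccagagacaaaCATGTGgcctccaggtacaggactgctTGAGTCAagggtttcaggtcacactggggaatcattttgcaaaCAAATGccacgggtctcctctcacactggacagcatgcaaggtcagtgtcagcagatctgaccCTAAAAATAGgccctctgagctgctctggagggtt
The element TGACGTCA, the letters bound by CREB and ATF factors, begins 143 bases before the start of Dusp1, and 107 and 63 bases before the start of Dusp8. Across 32851 RefSeq promoter windows of this length, 1.55% hold it on either strand. Dusp3, Dusp6, Dusp10, Dusp18 and Dupd1 have no match to it in this window. Any link between the element and the levels was not tested. The Dupd1 window holds the 10 letters CTAAAAATAG, a match to the MEF2 motif, beginning 35 bases before the start, which 2.92% of windows match. It also holds 4 E-boxes, a motif bound by myogenic factors and present in 66.2% of windows, and the AP-1 letters TGAGTCA, a motif in 6.75% of windows. In Dusp8, 2 E-boxes each overlap 1 of the CREB elements. Both strands were searched in the 7 members with a window, which also gave an E-box in Dusp1, Dusp6 and Dusp18. The glucocorticoid response element (in 0.387% of windows) and the SRF CArG box (1.47%) were not matched in these 7 windows. These are matches of letters in a short window and say nothing of binding.

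Dusp1 (ENSMUSG00000024190), also called MKP-1, is a nuclear phosphatase of p38, JNK and ERK that stress, growth factors and glucocorticoids induce within minutes. Radiotherapy replicates 1, 2 and 3 held it at 13.9, 9.20 and 52.1 TPM, against 86.3, 31.7 and 71.6 TPM in control replicates 1, 2 and 3. Radiotherapy replicates 1 and 2 lay below every control library and replicate 3 lay inside the control range, so the groups overlapped. The log2 difference was -1.56 (SE 0.67), and -2.26 without radiotherapy replicate 3, or -1.20 and -1.69 relative to the median feature.

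Dusp6 (ENSMUSG00000019960), or MKP-3, is a cytoplasmic phosphatase selective for ERK and a feedback target of that kinase. Its levels were 2.12, 1.97 and 2.87 TPM in radiotherapy muscle, against 3.73, 1.13 and 3.37 TPM in control muscle. The lowest and the highest of the 6 values were both controls. The log2 difference of -0.10 (SE 0.36) was smaller than its error and turned to 0.21 with median-of-ratios scaling, which moves the median of all features to -0.017.

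Dusp8 (ENSMUSG00000037887), which acts on JNK and p38, was the typical member whose groups were separated. It was at 1.68, 0.87 and 1.00 TPM in radiotherapy muscle, against 3.64, 3.78 and 3.02 TPM in control muscle. All 3 radiotherapy values were low, with replicate 3 between the others. The log2 difference was -1.05 (SE 0.26) with all libraries and -0.997 without radiotherapy replicate 3, or -0.69 and -0.43 relative to the median feature.

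Dusp10 (ENSMUSG00000039384), or MKP-5, also acts on JNK and p38, and mice without it regenerate muscle more readily after injury. It was at 9.67, 7.29 and 3.60 TPM in radiotherapy muscle, against 6.07, 3.20 and 6.60 TPM in control muscle. Radiotherapy replicates 1 and 2 were the highest of all 6, and replicate 3 was below 2 of the control libraries. The log2 difference was 0.28 (SE 0.40) with all libraries and 0.63 without radiotherapy replicate 3, or 0.64 and 1.19 relative to the median feature.

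Dusp3 (ENSMUSG00000003518), or VHR, is a small phosphatase of ERK and JNK. It was at 14.2, 16.2 and 19.5 TPM in radiotherapy muscle, against 29.1, 20.9 and 20.7 TPM in control muscle. The groups did not overlap, but the highest radiotherapy value lay close under the lowest control value. The log2 difference of -0.47 (SE 0.27) was near the median of all features, and was -0.063 with median-of-ratios scaling.

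Dusp18 (ENSMUSG00000047205), a phosphatase found at mitochondria, was the least abundant. It was at 0.59, 0.33 and 0.34 TPM in radiotherapy muscle, against 0.56, 0.55 and 0.53 TPM in control muscle. Radiotherapy replicates 2 and 3 lay below the controls and replicate 1 above them. With a mean under 1 TPM it was the 1 member of 8 left out by the filter on low values, and its log2 difference of -0.13 became 0.020 with median-of-ratios scaling.

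Dusp26 (ENSMUSG00000039661), known from neural tissue and reported to act on p38 and on p53, had the widest spread of the 8. Radiotherapy replicates 1, 2 and 3 held it at 9.03, 6.03 and 72.4 TPM, against 48.7, 40.0 and 19.4 TPM in control replicates 1, 2 and 3. Radiotherapy replicates 1 and 2 were the lowest of the 6 libraries and replicate 3 the highest. The mean of 29.1 ± 37.5 TPM in radiotherapy, beside 36.0 ± 15.1 TPM in control (SD, n = 3 libraries each), lies far from each of the 3 radiotherapy values. The log2 difference was -1.001 (SE 0.88), and -2.04 without radiotherapy replicate 3, or -0.64 and -1.48 relative to the median feature.

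Dupd1 (ENSMUSG00000063821), also named Dusp29, is a phosphatase of skeletal muscle that was described as induced in mouse muscle after nerve injury. Radiotherapy replicates 1, 2 and 3 held it at 31.6, 30.0 and 12.1 TPM, against 4.94, 5.77 and 5.84 TPM in control replicates 1, 2 and 3. The control values were tight, radiotherapy replicates 1 and 2 stood far above them, and replicate 3 lay between. The mean was 4.45 times as high in radiotherapy as in control, and the log2 difference was 1.86 (SE 0.39). That difference was 2.29 without radiotherapy replicate 3, or 2.22 and 2.86 relative to the median feature. Of the 11938 features, 42 had a higher difference.

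The fibre marker sum was also highest in radiotherapy replicates 1 and 2, and in bulk RNA more cells of a type and more RNA per cell cannot be told apart. Per 100000 TPM of fibre markers, a scaling chosen after the values were seen, Dupd1 was at 16.2, 14.6 and 11.5 TPM in radiotherapy muscle, against 3.80, 4.17 and 4.51 TPM in control muscle. The groups stayed apart on this scale, and radiotherapy replicate 3 lay nearer to the other radiotherapy libraries than it did as deposited. Dusp8 also stayed apart, at 0.863, 0.424 and 0.952 TPM in radiotherapy against 2.80, 2.73 and 2.33 TPM in control. Dusp3 did not, at 7.28, 7.88 and 18.5 TPM in radiotherapy against 22.3, 15.1 and 16.0 TPM in control. Dusp18, which overlapped as deposited and was under 1 TPM in every library, was apart on this scale. It was at 0.303, 0.161 and 0.324 TPM in radiotherapy against 0.430, 0.397 and 0.409 TPM in control. Dividing by the fibre sum lowers every gene in radiotherapy replicates 1 and 2 against the controls. The share of all features separated on this scale was not counted, so these separations have no background to be read against.

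**Figure D2:**
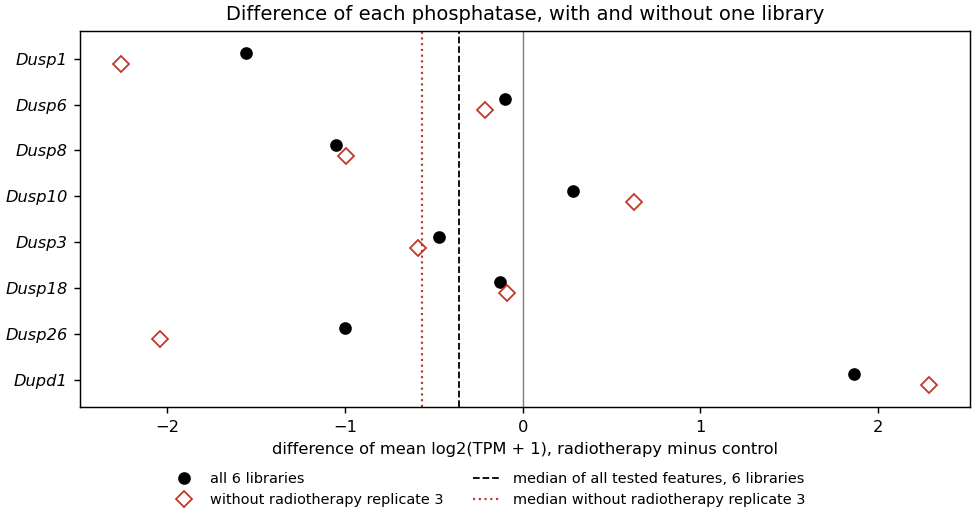
Difference of mean log2(TPM + 1), radiotherapy minus control, for each phosphatase with all 6 libraries (black circles) and without radiotherapy replicate 3 (open diamonds). Vertical lines mark 0 and the median of all 11938 tested features, -0.36 (dashed) and -0.57 without that library (dotted), and Dupd1 lies farthest to the right in both settings while Dusp1 and Dusp26 shift most when the library is left out.

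Of the 7 phosphatases that passed the filter, 1 had all its radiotherapy values above all its control values, and 2 had all of them below. Over all tested features the same separation was found for 1.73% as higher and 19.3% as lower. Since the genes were picked on this contrast, nothing follows from their share.

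By level, the order of the means in radiotherapy was Dusp26, Dusp1, Dupd1, Dusp3, Dusp10, Dusp6, Dusp8 and Dusp18. In control it was Dusp1, Dusp26, Dusp3, Dupd1, Dusp10, Dusp8, Dusp6 and Dusp18. In radiotherapy each of the first 4 overlapped its neighbour in range, and from Dusp3 downwards each gene's lowest library was above the highest library of the next. In control, Dusp3 was above Dupd1 and Dusp6 above Dusp18 in every library, and the other neighbours overlapped. Dupd1 thus lay in one range with Dusp3 and Dusp1 in radiotherapy muscle, and with Dusp10 in control muscle. The 8 levels summed to 82.8, 71.9 and 164 TPM in radiotherapy replicates 1, 2 and 3, against 183, 107 and 131 TPM in control replicates 1, 2 and 3.

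The genes nearest in pattern were found by the root mean square difference of log2(TPM + 1) over the 6 libraries, after centring each gene on its own mean, among 10354 named features. Nearest to Dupd1 was Col3a1, a fibrillar collagen chain, at 19.8, 19.9 and 8.27 TPM in radiotherapy against 4.01, 3.39 and 4.18 TPM in control (difference 0.14), and then Thy1, a surface protein of fibroblasts and neurons (0.24). Both are high in the 2 libraries where Dupd1 is highest, which follows from how they were picked. Markers of tendon, a tissue rich in fibrillar collagen, numbered 5 and summed to 53.2, 39.8 and 8.78 TPM in radiotherapy replicates 1, 2 and 3 and to 8.14 to 18.5 TPM in control, with none at 0 throughout and none of 5 separated between the groups. The 5 fibro-adipogenic markers summed to 435, 452 and 251 TPM in radiotherapy and 425 to 666 TPM in control, with none at 0 throughout. Of these 5, 1 was separated as lower, beside 19.3% of all tested features. That marker, Ly6a, was at 85.5, 90.8 and 85.2 TPM in radiotherapy against 288, 172 and 141 TPM in control. The part of either cell type in the level of Dupd1 was not tested.

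Nearest to Dusp1 was Atf3, a stress-induced factor of the ATF and CREB family, at 3.70, 2.53 and 18.7 TPM in radiotherapy against 23.6, 10.9 and 20.5 TPM in control (difference 0.15). Ivns1abp followed (0.22). Nearest to Dusp26 were Tnfaip2 (0.16) and Fbxo31, a ubiquitin ligase subunit (0.17), the second at 37.8, 34.7 and 278 TPM in radiotherapy against 192, 198 and 88.3 TPM in control. Since these genes were picked by pattern, they share with Dusp1 and Dusp26 the gap between radiotherapy replicate 3 and the other radiotherapy libraries. Neutrophil markers were also highest in that library, with 0 of 6 separated between the groups and none at 0 throughout; their part in these levels was not tested. The nearest features were Mast3 (0.0997) and Frmd4b (0.101) for Dusp6, Ccdc58 (0.11) and Pcyt2 (0.12) for Dusp8, and Plekha6 (0.094) and Mamstr (0.11) for Dusp10. For Dusp3 they were Efnb2 (0.054) and Dnmbp (0.057), and for Dusp18 Mrpl12 (0.047) and Guk1 (0.062). The small distances of Dusp3 and Dusp18 go with their small spread over the libraries, 0.31 and 0.11 on the same scale.

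**Figure D3:**
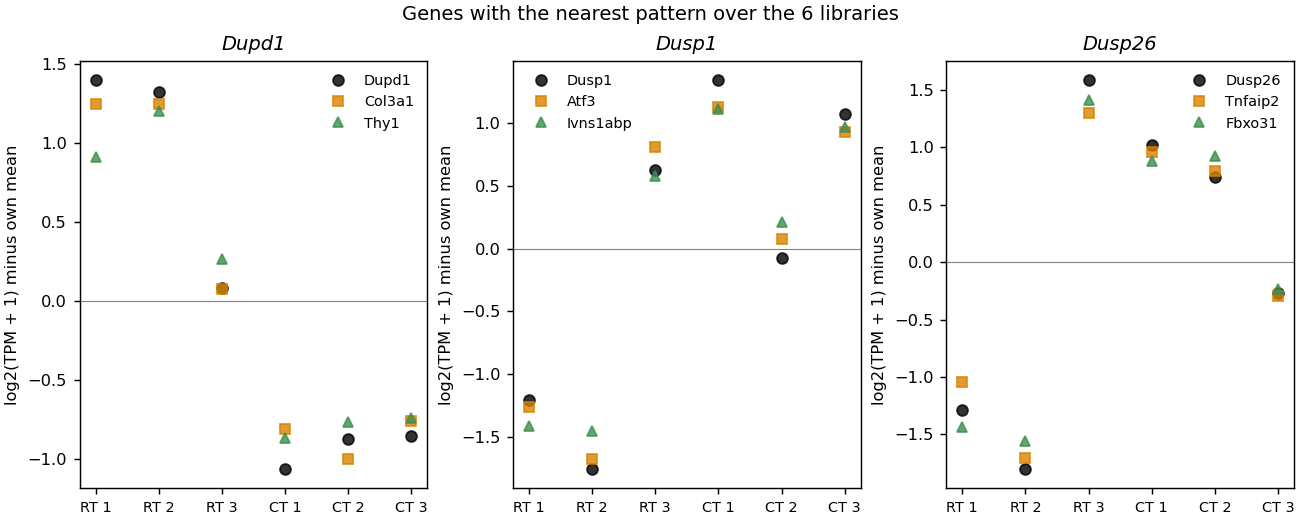
log2(TPM + 1) minus the gene's own mean in the radiotherapy (RT) and control (CT) libraries for Dupd1, Dusp1 and Dusp26 (black circles) and their 2 nearest genes (orange squares, green triangles). Dupd1 and Col3a1 are high in radiotherapy replicates 1 and 2 and intermediate in replicate 3, while Dusp1 and Dusp26 are below their own mean in replicates 1 and 2 and above it in replicate 3.

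The other genes of the pathway were taken from 8 lists by role, and here limma's linear model over all 11938 features was the test. Of those features 5 (0.0419%) rose and 2 (0.0168%) fell after adjustment (threshold 0.05), while unadjusted p-values under 0.05 were found for 1.18% as higher and 13.3% as lower. Of the 69 tested genes of these lists, 0 passed in either direction after adjustment, and the unadjusted p was under 0.05 for 11, each of them lower in radiotherapy. The groups were separated for 20 of the 69, with the radiotherapy libraries lower for 19 and higher for 1. Over all tested features the same separation was found for 19.3% as lower and 1.73% as higher. The counts of separated genes per list below have the same background. Without radiotherapy replicate 3, 26 of them fell and 1 rose by limma with Benjamini-Hochberg adjustment, beside 27.6% and 1.98% of all features in that setting. Radiotherapy replicate 3 was singled out from these same data, and the 2 radiotherapy libraries left are close to each other. Leaving out radiotherapy replicate 1 or 2 instead called 0 of the listed genes in either direction. A gene said to fall or rise without radiotherapy replicate 3 does so in that setting alone. Calls without radiotherapy replicate 3 are given below as adjusted p-values from the fit without it. Each tests a difference from 0, while the median of all features in that setting was -0.57. A gene called as falling there may therefore lie near that median.

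Of 4 other typical phosphatases tested, all had a difference below 0, with a median of -0.82 (-0.86 without radiotherapy replicate 3), and Dusp4 and Dusp9 were under 1 TPM. Dusp7, an ERK phosphatase, was at 6.08, 5.67 and 3.43 TPM in radiotherapy against 8.76, 7.96 and 12.8 TPM in control (log2 difference -0.84, SE 0.30, limma adjusted p = 0.327). Dusp16, a JNK phosphatase, was at 3.26, 2.23 and 4.69 TPM in radiotherapy against 7.54, 6.11 and 5.68 TPM in control (-0.79, SE 0.29, limma adjusted p = 0.329). Both were below every control library in all 3, including radiotherapy replicate 3. Dusp5, a nuclear ERK phosphatase, was at 0.37, 0.18 and 1.75 TPM in radiotherapy against 2.34, 4.60 and 1.58 TPM in control (-1.15, SE 0.44, limma adjusted p = 0.332). Without radiotherapy replicate 3, Dusp16 and Dusp5 fell (adjusted p = 0.0274 and 0.0317), and Dusp7 gave 0.0947.

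The other atypical phosphatases had a median of -0.21 over 12 tested, which was -0.42 without radiotherapy replicate 3, and 3 of them were lower in all 3 radiotherapy libraries. Epm2a, the glycogen phosphatase laforin, was at 13.3, 13.8 and 8.84 TPM in radiotherapy against 26.1, 13.7 and 26.7 TPM in control (limma adjusted p = 0.352). Dusp12, which acts in ribosome assembly, was at 5.07, 5.22 and 8.93 TPM in radiotherapy against 10.3, 10.9 and 9.04 TPM in control (limma adjusted p = 0.363, and 0.0240 without radiotherapy replicate 3). Dusp28 was at 18.2, 17.1 and 13.5 TPM in radiotherapy against 22.8, 26.8 and 22.4 TPM in control (limma adjusted p = 0.374). A pair of muscle-enriched genes, named after their values were seen, differed from Dupd1. Dusp13, the next protein-coding gene along the chromosome from Dupd1, was at 136, 107 and 358 TPM in radiotherapy against 174, 276 and 155 TPM in control. Dusp27, which is inactive as a phosphatase and is needed for myofibril assembly in zebrafish, was at 12.0, 9.69 and 33.1 TPM in radiotherapy against 33.8, 52.0 and 22.4 TPM in control. Both were lowest in the 2 libraries where Dupd1 was highest. The median log2(TPM + 1) of all tested features was also lowest there, at 2.48 and 2.40, against 2.97 to 3.22 in the other libraries. Dusp21 was listed at 0 in every library.

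Other phosphatases that act on MAP kinases had a median of -0.66 over 4 tested, which was -0.99 without radiotherapy replicate 3, and 2 of the 4 were below every control library. Ppm1b, a metal-dependent serine and threonine phosphatase, was at 15.6, 14.6 and 40.8 TPM in radiotherapy against 74.6, 50.7 and 51.9 TPM in control (log2 difference -1.42, SE 0.44, limma adjusted p = 0.299). Its relative Ppm1a was at 71.2, 74.6 and 114 TPM in radiotherapy against 152, 121 and 118 TPM in control (limma adjusted p = 0.384). Ppp2ca, a catalytic subunit of protein phosphatase 2A, was at 10.6, 10.7 and 27.6 TPM in radiotherapy against 23.9, 27.8 and 23.2 TPM in control (limma adjusted p = 0.417). Without radiotherapy replicate 3, all 4 tested fell. The limma adjusted p-values were 0.0120 for Ppm1b, 0.0274 for Ppm1a, 0.0137 for Ppp2ca and 0.0432 for Ppp2cb, the other catalytic subunit. Relative to the median feature in that setting, they were at -1.31, -0.25, -0.59 and -0.064, so Ppp2cb lay near that median.

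Among the substrates, 10 MAP kinases were tested, with a median of -0.28 that was -0.64 without radiotherapy replicate 3. Mapk8, which encodes JNK1, was at 3.61, 2.94 and 6.60 TPM in radiotherapy against 8.10, 8.16 and 8.44 TPM in control (log2 difference -0.84, SE 0.30, limma adjusted p = 0.328). It was below every control library in each radiotherapy library, and it fell without radiotherapy replicate 3 (adjusted p = 0.0147). Nlk was at 0.85, 1.26 and 2.33 TPM in radiotherapy against 2.69, 2.85 and 1.57 TPM in control (limma adjusted p = 0.499). Mapk14, p38 alpha, named after its values were seen, was at 16.8, 17.3 and 96.7 TPM in radiotherapy against 53.6, 42.1 and 31.4 TPM in control, a split like that of Dusp26.

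Of 7 MAP kinase kinases tested, with a median of -0.44 (-0.61 without radiotherapy replicate 3), 2 were below every control library. Map2k3, an activator of p38, was at 51.3, 49.1 and 68.2 TPM in radiotherapy against 99.8, 129 and 86.4 TPM in control (log2 difference -0.89, SE 0.29, limma adjusted p = 0.306). Map2k4, which activates JNK, was at 12.0, 10.7 and 12.9 TPM in radiotherapy against 19.2, 17.4 and 16.9 TPM in control (limma adjusted p = 0.348). Map2k6, which like Map2k3 activates p38, went the other way in radiotherapy replicates 1 and 2, at 6.52 and 9.29 TPM. It was at 0.99 TPM in radiotherapy replicate 3 and 1.23 to 2.59 TPM in control (limma adjusted p = 0.440). Without radiotherapy replicate 3, Map2k6 rose (log2 difference 1.73, limma adjusted p = 0.0164), while Map2k3 and Map2k4 fell (limma adjusted p = 0.0241 and 0.0463). Relative to the median feature in that setting, Map2k6 was at 2.30, Map2k3 at -0.46 and Map2k4 at -0.041, so Map2k4 lay near that median.

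The 13 tested kinases above them had a median of -0.50 (-0.71 without radiotherapy replicate 3), and 3 were lower in all 3 radiotherapy libraries. Araf, a RAF kinase of the ERK route, was at 43.8, 38.9 and 55.2 TPM in radiotherapy against 84.1, 85.4 and 64.1 TPM in control (log2 difference -0.75, SE 0.28, limma adjusted p = 0.329). Map3k4 was at 4.62, 4.02 and 3.78 TPM in radiotherapy against 6.98, 7.84 and 5.19 TPM in control (limma adjusted p = 0.352). Map3k10 was at 9.18, 7.80 and 9.21 TPM in radiotherapy against 14.8, 14.1 and 11.0 TPM in control (limma adjusted p = 0.354). All 3 were low in every radiotherapy library, and without replicate 3 Araf fell (adjusted p = 0.0277).

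Downstream, 9 kinases that MAP kinases activate were tested, with a median of -0.59 (-0.70 without radiotherapy replicate 3). Mapkapk3, a substrate of p38, was at 5.92, 5.71 and 11.4 TPM in radiotherapy against 22.3, 13.5 and 12.2 TPM in control (log2 difference -0.98, SE 0.36, limma adjusted p = 0.329). Mknk2, which phosphorylates the cap-binding protein eIF4E, was at 54.7, 48.8 and 474 TPM in radiotherapy against 415, 487 and 289 TPM in control (-1.83, SE 0.85, limma adjusted p = 0.365). Mapkapk2 was at 53.5, 48.6 and 80.2 TPM in radiotherapy against 111, 84.6 and 79.3 TPM in control (limma adjusted p = 0.394). Mknk2 was inside the control range in radiotherapy replicate 3 and below it in the others. Its limma adjusted p was 0.747 without radiotherapy replicate 1 and 0.787 without radiotherapy replicate 2. Without radiotherapy replicate 3 it fell (log2 difference -2.89, limma adjusted p = 0.0103). Mapkapk3 and Mapkapk2 also fell in that setting (limma adjusted p = 0.0278 and 0.0362).

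Genes read as output of ERK, which include feedback inhibitors, had a median of -0.62 over 10 tested, which was -1.22 without radiotherapy replicate 3, and 3 were lower in all 3 radiotherapy libraries. Phlda1 was at 0.92, 0.69 and 4.14 TPM in radiotherapy against 9.78, 9.25 and 7.91 TPM in control (log2 difference -1.96, SE 0.44, limma adjusted p = 0.251). Spry1, a Sprouty inhibitor of receptor signalling, was at 2.07, 1.87 and 1.61 TPM in radiotherapy against 7.99, 2.71 and 7.22 TPM in control (-1.19, SE 0.38, limma adjusted p = 0.304). Etv5, an ETS factor, was at 1.47, 1.67 and 1.19 TPM in radiotherapy against 2.26, 2.52 and 2.66 TPM in control (limma adjusted p = 0.368). Spry1 and Etv5 were lowest in radiotherapy replicate 3, and Phlda1 was highest of its group there. Without that library Phlda1 fell (adjusted p = 0.0103).

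**Figure D4:**
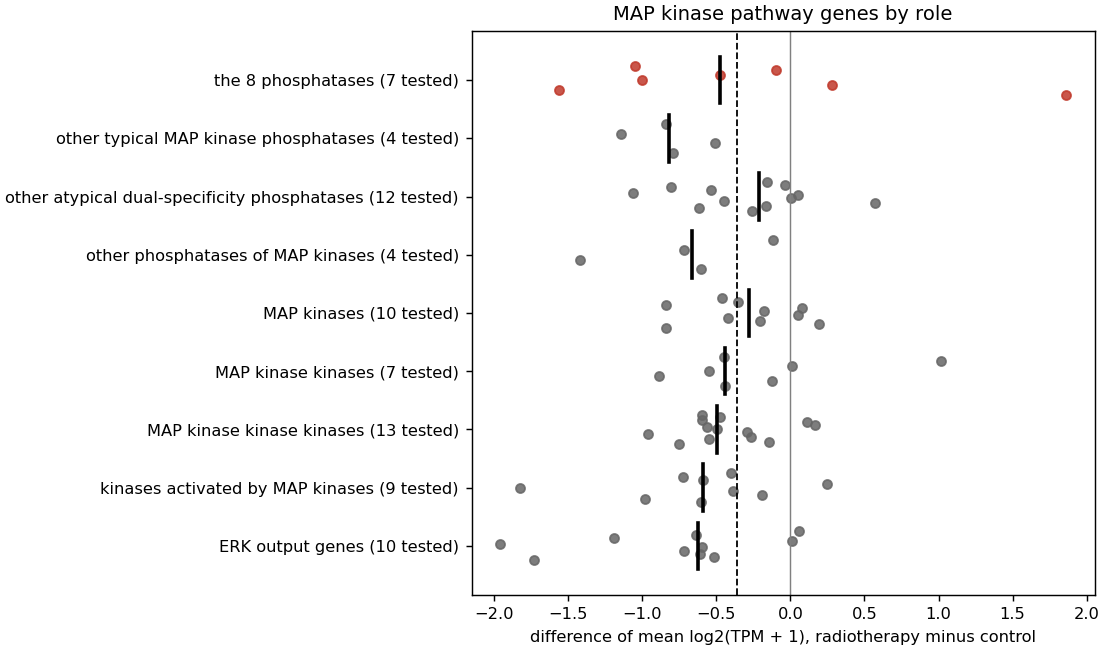
Difference of mean log2(TPM + 1), radiotherapy minus control, for the tested genes of each role, 1 point per gene, with the 7 tested phosphatases in red, the median of each list as a black bar and the median of all features, -0.36, as a dashed line. Most points lie below 0, and Dupd1 and Map2k6 are the points farthest above it.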

How the data were processed

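RNA-seq values of 6 gastrocnemius libraries were read from 1 deposited table of TPM, made by the authors. Per the submitters' processing notes HISAT2, StringTie and RSEM were used with the build mm9, with no version, role or order, and with an annotation not given in the sources used here. Upstream windows come from RefSeq tables on GRCm38.p6, matched by symbol for 7 of 8 genes, and no positions were read from the deposited table.

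Groups were taken from the labels. The 8 genes and the lists were chosen with earlier results of these data known. Features averaging 1 TPM or more were fitted as log2(TPM + 1) with limma 3.58.1 in R 4.3.3 (empirical Bayes with a trend, no covariates, two-sided), and p-values were adjusted by Benjamini-Hochberg over all 11938. SE is limma's. The fit was checked on simulated data with independent normal errors and levels raised well above those measured. That check does not cover genes at low levels or a library that differs from its group. Named genes were the 8, the 3 with the smallest unadjusted p of each list (98 of 100 entries found), and the 2 nearest in pattern to each of the 8, leaving out predicted models. A listed gene that this rule names is not reported here. TPM holds no read depth, so no interval or detection limit is given. Alternatives were other pseudocounts, filters and scalings, no trend, a replicate block and leaving out each library.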

Additional observations from a re-analysis of the deposited data

How the results depend on the processing

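Over 15 alternatives, of which the scaling to fibre markers was chosen after seeing the data, the log2 difference of Dupd1 ran from 1.61 to 2.29, that of Dusp1 from -2.26 to -1.07 and that of Dusp26 from -2.04 to -0.35. Over 14 alternatives that of Dusp8 ran from -1.53 to -0.72. Dusp10 ran from 0.016 to 0.69 and Dusp3 from -0.74 to -0.063. Dusp6 turned positive with median-of-ratios scaling (0.21) and quantile normalisation (0.21), and ran from -0.46 to 0.11 without single libraries. Dusp18 turned positive with median-of-ratios scaling (0.020). These scalings move the median of all features to -0.017 and -0.016. Features called higher and lower by limma numbered 5 and 2. With a pseudocount of 0.1 they were 5 and 5, at a stricter minimum of 5 TPM 4 and 1, unfiltered 0 and 0, and with median-of-ratios scaling or quantile normalisation 3 and 1. Without single libraries they ran from 0 to 236 higher and 0 to 3298 lower, the highest without radiotherapy replicate 3. Listed pathway genes called then ran from 0 to 1 higher and 0 to 26 lower, and were 0 in every other setting. The labels do not say whether the replicate numbers pair the libraries. Deviations of same-numbered libraries from their group mean had correlations of -0.045, -0.11 and -0.20. With 3 libraries per group these deviations depend on each other, so the correlations cannot decide it. With a replicate block 4 features were higher and 0 lower. The cause of these shifts was not tested.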
